A study of Homo sapiens with 12 samples.

Results

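The genes described here carry out antigen presentation by major histocompatibility complex (MHC) class I and class II molecules, and UBD is described with them. A set of 32 genes was taken by name: the class I and class II chains, the peptide transport and loading machinery, the immunoproteasome and its activator, the transactivators NLRC5 and CIITA, and UBD. Every array probe listed with one of these genes was used. They lay on 51 of the 54359 probes of the array, 42 listed with 1 member gene alone and 9 listed with several genes, and all 51 could be tested. For 28 of the 32 genes a single-gene probe existed, and the one with the highest mean signal represented the gene, as for all 18106 genes so represented. HLA-B, HLA-C, TAP2 and CD74 were present only on probes listed with several genes, whose signal cannot be assigned to 1 of them.

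The cells were T-HESC, a line of human endometrial stromal cells made permanent by introducing telomerase, so all arrays stem from 1 line kept under puromycin. After 24 h without serum, 1 group was given vehicle for 48 h. The others were given 5 ng/ml of TNFα (tumour necrosis factor alpha), 1 ng/ml of IL1β (interleukin 1 beta), or these doses together, for the same time. Each of the 4 groups had 3 single-colour CodeLink arrays, and replicates 1, 2 and 3 were passages 13, 28 and 15 of the line. The p-values therefore rest on the spread between arrays of 1 line within groups, pooled over the groups, and not on that between donors. The question was which genes these inflammatory cytokines regulate in endometrial stroma.

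Class I molecules show peptides cut from the cell's own proteins by the proteasome to cytotoxic T cells, and they also bind receptors of natural killer cells. The transporter TAP carries those peptides into the endoplasmic reticulum, where tapasin and chaperones load them onto a heavy chain paired with beta-2 microglobulin. Class II molecules, best known from professional antigen-presenting cells, carry peptides made in endosomes under the guidance of the invariant chain CD74 and HLA-DM, and their transcription depends on CIITA as that of class I depends in part on NLRC5.

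All levels are log2 of an intensity scaled so that the median probe of an array lies near 0, and all changes are differences of group means on that scale with standard errors from limma. A gene is said to have risen only at an adjusted p (Benjamini-Hochberg over 53671 probes) under 0.05. The number of probes with a signal above 0 was 52944 to 53507 per array. The 3 arrays vehicle replicate 3, TNFα replicate 3 and IL1β replicate 2 lay at the high end of the first principal component (scores 171.1, 68.7 and 53.0, against −84.8 to −18.2 for the other 9), which held 22.6% of the variance. Vehicle replicate 1 had the lowest score on the first component and the highest on the second (127.1). It was kept in the fits without the 3 arrays apart. Of 14 stromal markers 11 were measured, and all 11 lay above the array median on all 12 arrays. In bulk RNA, fewer cells expressing a gene and less RNA per cell cannot be told apart.

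Among the members, UBD rose with TNFα across the arrays. It encodes FAT10, a ubiquitin-like protein that marks proteins for the proteasome and whose gene lies within the MHC. Its log2 level was −2.35, −2.26 and −1.92 on the vehicle arrays. With TNFα it was 1.47, 0.37 and 0.17. With IL1β it was −1.30, −1.75 and −3.08, and with both cytokines 0.80, 0.95 and 0.91. All 6 arrays with TNFα lay above all 6 without it, as for 4 of the 28 members (UBD, HLA-F, HLA-G and PSME2) and for 0.602% of all genes, and the IL1β arrays lay on both sides of the vehicle arrays.

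UBD rose with both cytokines against vehicle by 3.06 ± 0.45 (8.37-fold, adjusted p = 0.0290). It was the only one of the 28 represented members called there, where 0.287% of all represented genes were called higher. Over all 12 arrays UBD also rose with TNFα, averaged over the presence and absence of IL1β, by 2.89 ± 0.32 (7.41-fold, adjusted p = 0.0106), again as the only member called, against 0.127% of all genes called higher. At an unadjusted p under 0.05, 7 members were higher in that comparison, against 3.92% of genes. The vehicle levels of UBD lay below the array median on a dim probe with no detection call, so the folds are against a level that may be background and their size is uncertain. For TNFα alone the UBD change was 2.85 ± 0.45 (7.19-fold), which missed the threshold (adjusted p = 0.0875). No member was called with TNFα alone, where 0.0663% of genes were called higher. At an unadjusted p under 0.05, 6 members were higher, against 3.45% of genes, and 1 was lower, against 3.16%.

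IL1β alone left UBD 0.13 ± 0.45 above vehicle (adjusted p = 0.949), and adding IL1β to TNFα moved it by 0.22 ± 0.45 (adjusted p = 0.997). The interaction of the cytokines was 0.09 ± 0.64 for UBD, an error too wide to tell additive from moderately non-additive responses. The UBD call with both cytokines was not stable. With the passage as a replicate block its adjusted p was 0.0535, and without any 1 of the 6 arrays it lay between 0.0548 and 0.122. When the 3 arrays apart were left out, the UBD changes were 3.19 (adjusted p = 0.0731) with both cytokines and 3.15 (adjusted p = 0.122) over all TNFα arrays. The TNFα call over all arrays was kept under the block (adjusted p = 0.0288) and in 11 of the 12 fits that left out 1 array, and was lost without replicate 2 of both cytokines (adjusted p = 0.0524). It was also lost in each of the 3 fits that left out a passage, with adjusted p from 0.221 to 0.433.

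The UBD promoter is shown because UBD is the member whose change passed the test. The 200 bases before its RefSeq start site (GRCh38.p14, chr6:29559733-29559932, minus strand) read as follows, with a match to the NF-kB motif in capitals.
UBD: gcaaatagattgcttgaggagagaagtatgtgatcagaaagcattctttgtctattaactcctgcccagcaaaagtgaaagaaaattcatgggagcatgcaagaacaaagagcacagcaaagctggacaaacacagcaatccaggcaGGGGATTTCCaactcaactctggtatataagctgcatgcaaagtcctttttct
The match lies at −53 to −44 relative to the start site. NF-kB is the transcription factor family through which TNFα and IL1β are best known to act. A match to the motif, searched on both strands, stood in the 250 bases before the start in 5.21% of 35116 promoter windows of all genes.

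**Figure D1:**
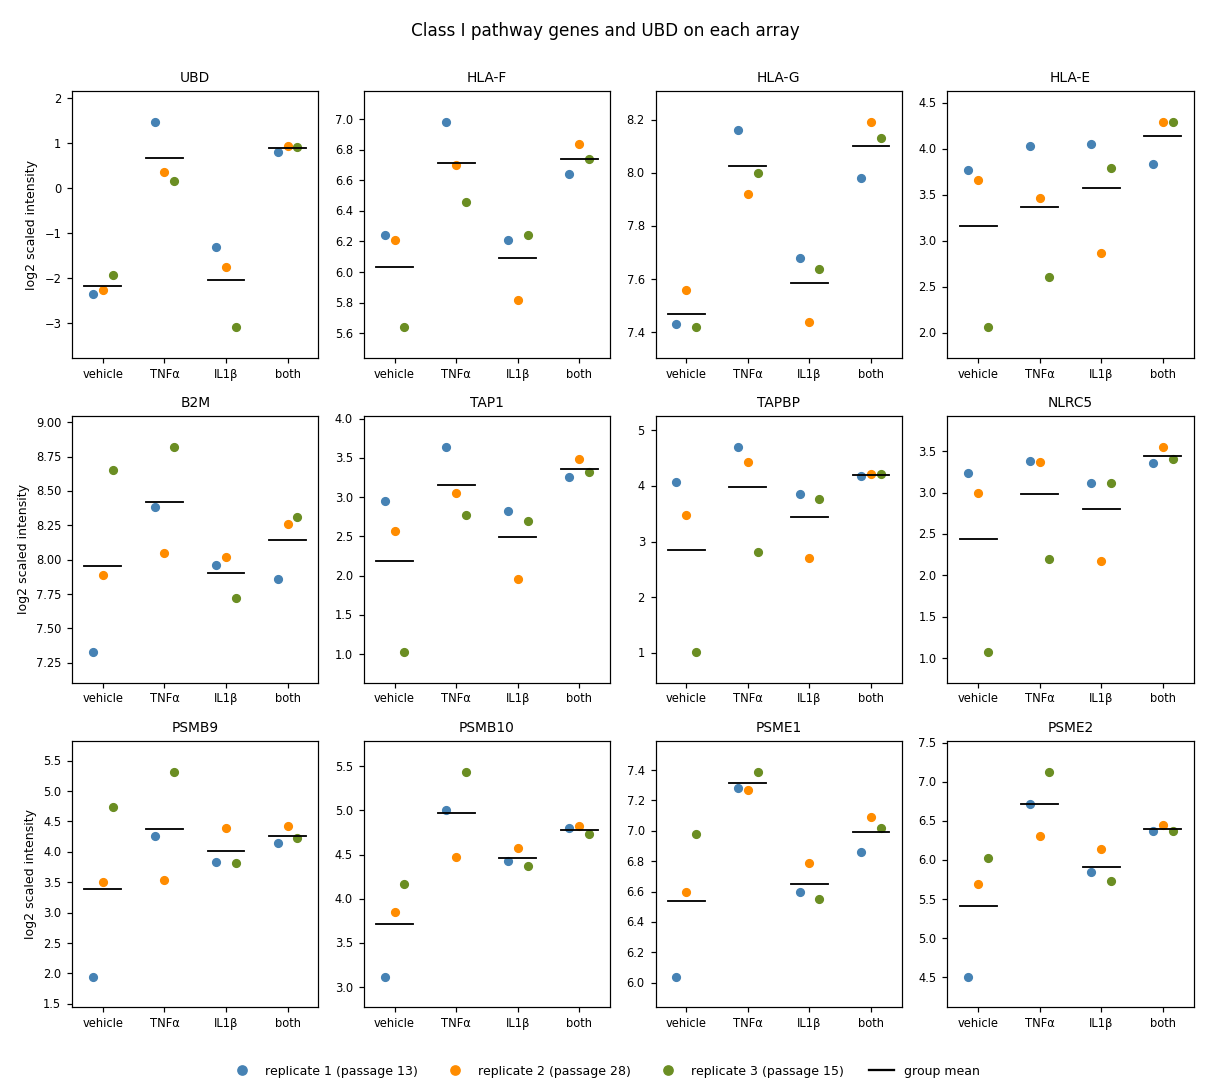
Log2 scaled intensity (vertical axis) of UBD and 11 class I pathway genes on every array in the 4 groups (horizontal axis), with points coloured by passage and a line at each group mean. UBD, HLA-F, HLA-G and PSME2 lay higher on each of the 6 arrays with TNFα than on any of the 6 without it, while TAP1, TAPBP, NLRC5 and HLA-E were lowest on vehicle replicate 3.

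The class I chains lay above the array median on all 12 arrays. Near-identical chains can share probe signal, and the part of other chains in each of these probes was not tested. HLA-G, a class I chain best known from the trophoblast, had log2 levels of 7.43, 7.56 and 7.42 with vehicle and 8.16, 7.92 and 8.00 with TNFα. It stood at 7.68, 7.44 and 7.64 with IL1β and at 7.98, 8.19 and 8.13 with both. All 6 arrays with TNFα lay above the other 6. The HLA-G difference over all TNFα arrays was 0.54 ± 0.11 (1.45-fold, adjusted p = 0.198), and a second HLA-G probe gave 0.69 ± 0.17 (adjusted p = 0.309).

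HLA-F, another class I chain with few allelic forms, had levels of 6.24, 6.21 and 5.64 with vehicle and 6.98, 6.70 and 6.46 with TNFα. With IL1β it had 6.21, 5.82 and 6.24, and with both cytokines 6.64, 6.84 and 6.74. The arrays with TNFα again lay above those without. HLA-F differed by 0.67 ± 0.16 over all TNFα arrays (1.59-fold, adjusted p = 0.284), and its dimmer second probe by 1.33 ± 0.30 (adjusted p = 0.233). On that second probe the arrays with and without TNFα overlapped (lowest with it 1.06, highest without it 1.19). These differences of HLA-F and HLA-G did not pass the test over all probes.

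HLA-E, whose product is the ligand of the natural killer receptor NKG2A, gave 3.77, 3.66 and 2.06 with vehicle and 4.03, 3.47 and 2.60 with TNFα. It gave 4.05, 2.87 and 3.79 with IL1β and 3.84, 4.29 and 4.29 with both. Only the arrays with both cytokines cleared all vehicle arrays, and the difference of 0.98 ± 0.52 (adjusted p = 0.461) shrank to 0.43 when the 3 arrays apart were left out. B2M, the light chain that all class I molecules share, read 7.33, 7.89 and 8.65 with vehicle and 8.38, 8.05 and 8.82 with TNFα. B2M read 7.96, 8.02 and 7.72 with IL1β and 7.86, 8.26 and 8.31 with both, so the vehicle arrays spanned most of the range and the TNFα difference was 0.46 ± 0.33 (adjusted p = 0.853).

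A probe listed with HLA-E, HLA-C and HLA-B together read 7.35, 7.07 and 6.83 with vehicle and 8.15, 7.94 and 7.22 with TNFα. It read 7.26, 6.79 and 7.21 with IL1β and 7.67, 7.74 and 7.72 with both. Replicate 3 with TNFα lay inside the range of the vehicle arrays. The difference over all TNFα arrays was 0.66 ± 0.19 (adjusted p = 0.397) and cannot be assigned to 1 of the 3 genes. The probe listed with HLA-C and the pseudogene HLA-L differed by 0.32 ± 0.18 (adjusted p = 0.771).

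Among the transport and loading genes, TAP1, a subunit of the peptide transporter, had log2 levels of 2.95, 2.57 and 1.03 with vehicle and 3.64, 3.05 and 2.77 with TNFα. It had 2.82, 1.96 and 2.70 with IL1β and 3.26, 3.49 and 3.32 with both. The arrays with both cytokines lay above all vehicle arrays, by 1.17 ± 0.46 on average (2.26-fold, adjusted p = 0.328). That TAP1 difference was 0.60 when the 3 arrays apart were left out.

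TAPBP encodes tapasin, which ties the heavy chain to the transporter. TAPBP levels were 4.07, 3.47 and 1.02 with vehicle and 4.70, 4.42 and 2.82 with TNFα. They were 3.86, 2.71 and 3.76 with IL1β and 4.18, 4.21 and 4.21 with both. TAPBP differed by 1.34 ± 0.74 between both cytokines and vehicle (adjusted p = 0.478), and by 0.43 when the 3 arrays apart were left out. Vehicle replicate 3 read 2.75 lower than the mean of the other vehicle arrays for this gene.

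The remaining loading genes gave smaller differences between both cytokines and vehicle: 0.58 ± 0.63 for the chaperone CALR, 0.20 ± 0.16 for the chaperone CANX, 0.18 ± 0.28 for the oxidoreductase PDIA3, and 0.36 ± 0.39 and −0.19 ± 0.23 for the peptide-trimming enzymes ERAP2 and ERAP1. None of these 5 passed, with adjusted p between 0.650 and 0.832. TAP2 was represented only by a probe shared with the tubulin gene TUBA1C, which gave 0.98 ± 0.69 (adjusted p = 0.590).

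The immunoproteasome genes encode the catalytic subunits that replace the standard ones under inflammation, and PSME1 and PSME2 encode the activator PA28 that opens the core. PSMB10 had log2 levels of 3.12, 3.85 and 4.17 with vehicle and 5.00, 4.47 and 5.44 with TNFα. PSMB10 stood at 4.43, 4.57 and 4.37 with IL1β and at 4.80, 4.82 and 4.73 with both. All 9 arrays with a cytokine lay above the 3 vehicle arrays. The PSMB10 differences from vehicle were 1.26 ± 0.30 with TNFα (adjusted p = 0.323), 0.74 ± 0.30 with IL1β (adjusted p = 0.480) and 1.07 ± 0.30 with both (adjusted p = 0.201). A second PSMB10 probe gave smaller differences of 0.30 ± 0.20 (adjusted p = 0.833), 0.31 ± 0.20 (adjusted p = 0.652) and 0.30 ± 0.20 (adjusted p = 0.567), and on it the arrays with IL1β and with both cytokines overlapped the vehicle arrays.

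PSME2 had levels of 4.51, 5.69 and 6.02 with vehicle and 6.72, 6.31 and 7.13 with TNFα. It had 5.85, 6.14 and 5.73 with IL1β and 6.37, 6.45 and 6.37 with both. Its TNFα arrays lay above the rest, by 0.90 ± 0.25 over all TNFα arrays (1.87-fold, adjusted p = 0.397), and a second PSME2 probe gave 1.31 ± 0.33 (adjusted p = 0.305).

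PSME1, the partner of PSME2, read 6.04, 6.60 and 6.98 with vehicle and 7.28, 7.27 and 7.39 with TNFα. PSME1 read 6.60, 6.79 and 6.55 with IL1β and 6.86, 7.09 and 7.02 with both. Only TNFα alone cleared every vehicle array, by 0.77 ± 0.23 (adjusted p = 0.497). PSMB9 ranged from 1.95 to 4.73 on the vehicle arrays alone, and its difference of 0.98 ± 0.63 with TNFα (adjusted p = 0.822) lay within that spread. PSMB8 differed by 0.32 ± 0.18 with TNFα (adjusted p = 0.783). Vehicle replicate 1 read lowest of the 12 arrays for PSMB8 (5.27), PSMB9, PSMB10, PSME1 and PSME2. That array was kept in the fits without the 3 arrays apart.

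The promoters of 6 class I pathway genes are shown because they hold motif matches and their genes gave the values above. The interferon-stimulated response element (ISRE), bound by interferon regulatory factors, was searched on both strands as GAAA, any 2 bases and GAAA, and the NF-kB motif as before. Each line gives the 200 bases before a RefSeq start site in GRCh38.p14 with the matches in capitals: an ISRE in HLA-F (chr6:29723234-29723433, plus strand), PSMB10 (chr16:67936851-67937050, minus strand) and PSME2 (chr14:24146611-24146810, minus strand), and both motifs in B2M (chr15:44711317-44711516, plus strand), TAP1 (chr6:32853705-32853904, minus strand) and TAPBP (chr6:33314079-33314278, minus strand).
HLA-F: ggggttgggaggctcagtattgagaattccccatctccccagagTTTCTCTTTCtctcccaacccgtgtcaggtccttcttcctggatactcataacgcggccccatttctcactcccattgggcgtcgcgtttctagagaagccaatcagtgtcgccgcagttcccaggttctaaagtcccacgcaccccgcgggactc
B2M: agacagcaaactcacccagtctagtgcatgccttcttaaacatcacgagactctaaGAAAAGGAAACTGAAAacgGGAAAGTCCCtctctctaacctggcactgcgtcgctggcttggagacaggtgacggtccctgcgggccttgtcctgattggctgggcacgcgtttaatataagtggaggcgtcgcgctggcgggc
TAP1: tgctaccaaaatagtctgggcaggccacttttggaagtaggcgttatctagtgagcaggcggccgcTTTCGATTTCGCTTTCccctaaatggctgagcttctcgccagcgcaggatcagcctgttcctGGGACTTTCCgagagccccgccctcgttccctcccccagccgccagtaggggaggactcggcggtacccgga
TAPBP: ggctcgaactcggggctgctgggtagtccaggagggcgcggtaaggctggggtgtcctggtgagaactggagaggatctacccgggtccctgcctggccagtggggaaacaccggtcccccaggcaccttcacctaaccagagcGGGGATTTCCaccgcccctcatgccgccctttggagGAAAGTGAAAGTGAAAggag
PSMB10: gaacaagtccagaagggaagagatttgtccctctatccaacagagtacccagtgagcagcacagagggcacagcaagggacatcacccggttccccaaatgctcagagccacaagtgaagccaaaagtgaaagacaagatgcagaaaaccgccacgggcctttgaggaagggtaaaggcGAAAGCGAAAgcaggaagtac
PSME2: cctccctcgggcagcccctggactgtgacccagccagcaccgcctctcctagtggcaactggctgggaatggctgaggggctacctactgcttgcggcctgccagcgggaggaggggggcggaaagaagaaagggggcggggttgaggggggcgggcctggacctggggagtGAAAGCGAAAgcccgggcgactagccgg
In B2M, TAP1 and TAPBP a pair of overlapping ISRE matches forms 1 run of capitals, and no ISRE match overlaps an NF-kB match.

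Promoter windows were found for 27 of the 32 members, and not for PDIA3, CIITA, HLA-DRA, NLRC5 and HLA-E. An ISRE match stood in the 250 bases before a start of 8 members (HLA-F, B2M, TAP1, TAP2, TAPBP, PSMB10, PSME2 and ERAP2), against 3.02% of all windows. The NF-kB motif matched in 8 members (HLA-B, HLA-C, B2M, TAP1, TAPBP, ERAP1, UBD and CD74), against 5.21%. The motif of interferon-gamma signalling, TTCNNNGAA, matched in 3 (TAP1, PSMB8 and HLA-DQA1), against 6.57%. HLA-G, PSME1 and PSMB9, whose values are given above, held no ISRE, NF-kB or TTCNNNGAA match. ATTGG, the Y box of MHC promoters, matched in 18 members against 32.0%, and TGACG, the core of the X2 box, in 11 against 21.2%. Several members have more than 1 window, which raises their share. TAP1 and PSMB9 start 488 bases apart on opposite strands, so the TAP1 stretch shown lies between them.

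**Figure D2:**
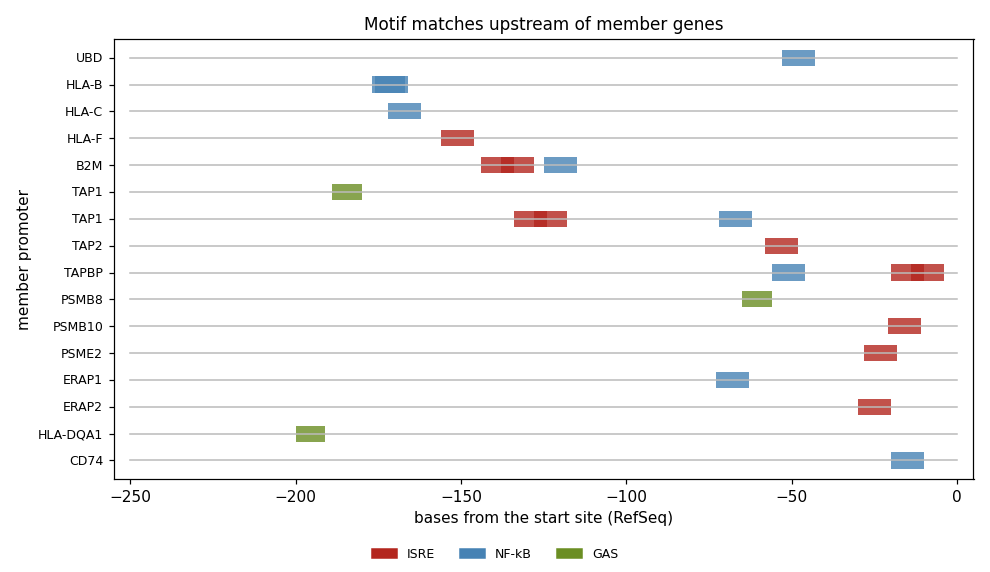
Positions of ISRE, NF-kB and GAS (TTCNNNGAA) matches in the 250 bases before RefSeq start sites (horizontal axis, bases from the start) for each member promoter with at least 1 match (vertical axis, TAP1 shown for each of its start sites). UBD and CD74 hold 1 NF-kB match each, and B2M, TAP1 and TAPBP hold both ISRE and NF-kB matches.

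NLRC5, the transactivator of class I genes, had log2 levels of 3.24, 2.99 and 1.08 with vehicle and 3.38, 3.37 and 2.20 with TNFα. NLRC5 had 3.12, 2.17 and 3.12 with IL1β and 3.36, 3.55 and 3.40 with both. The difference with both cytokines was 1.01 ± 0.55 (adjusted p = 0.478), and 0.33 when the 3 arrays apart were left out. CIITA, the transactivator of class II genes, had 1.80, 2.33 and 2.94 with vehicle and 2.05, 2.26 and 2.55 with TNFα. It had 2.04, 1.99 and 1.87 with IL1β and 2.10, 2.14 and 2.09 with both. The CIITA differences from vehicle were −0.07 ± 0.27, −0.39 ± 0.27 and −0.24 ± 0.27, all within the spread of the vehicle arrays. A second CIITA probe gave 0.56 ± 0.50, −0.47 ± 0.50 and 0.54 ± 0.50, so the probes differed in sign with TNFα and with both.

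The class II chains were dim. Of the 9 class II members on single-gene probes, HLA-DRA, HLA-DRB1, HLA-DPA1, HLA-DPB1, HLA-DQB1 and HLA-DOA lay below the array median on all 12 arrays, and none of the 9 passed the test in any comparison with vehicle. HLA-DRA, the alpha chain of HLA-DR, had log2 levels of −3.63, −1.37 and −2.68 with vehicle and −1.53, −2.35 and −1.17 with TNFα. It had −2.81, −2.83 and −1.79 with IL1β and −2.45, −1.62 and −1.87 with both. All 4 groups overlapped, and the HLA-DRA difference with TNFα was 0.88 ± 0.55 (adjusted p = 0.819), while a second probe gave −0.99 ± 0.33 (adjusted p = 0.566).

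HLA-DPB1 was the member that lay lower on all TNFα arrays than on all vehicle arrays, by −1.70 ± 0.74 (adjusted p = 0.694), with 1 array at −5.30, a pattern that 4.48% of all genes showed. Without that array, TNFα replicate 2, the HLA-DPB1 difference was −0.59. A probe listed with HLA-DPB1 and HLA-DPB2, above the array median on all 12 arrays, differed the other way, by 0.50 ± 0.19 (adjusted p = 0.640), with all TNFα arrays above all vehicle arrays, and cannot be assigned to 1 gene. HLA-DPA1 lay higher with IL1β than on any vehicle array, by 1.08 ± 0.47 (adjusted p = 0.506), but its second probe gave −1.11 ± 0.41 (adjusted p = 0.446). HLA-DRB1 differed by −1.09 ± 1.05 with TNFα and HLA-DQB1 by 0.17 ± 0.74, both with wide errors. HLA-DOA, which restrains HLA-DM, differed by 0.41 ± 0.20 with both cytokines (adjusted p = 0.422), and HLA-DQA1 by 0.33 ± 0.25 (adjusted p = 0.622). Their other single-gene probes gave 0.21 ± 0.50 for HLA-DOA and −1.97 ± 1.45 and 0.01 ± 0.25 for HLA-DQA1.

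HLA-DMA and HLA-DMB, which form the peptide editor HLA-DM, were measured above the array median on every array. HLA-DMB ranged from 2.11 to 5.66 within the vehicle group, and differed by −0.34 ± 0.71 with both cytokines (adjusted p = 0.884). HLA-DMA differed by 0.11 ± 0.17 (adjusted p = 0.834), and by −0.29 ± 0.22 on a second probe (adjusted p = 0.614).

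Some class II genes were seen on shared probes. The probe listed with CD74 and RNF40, the latter a ubiquitin ligase of histones, read −2.81, −1.86 and −2.17 with vehicle and 1.23, 0.42 and −0.94 with TNFα. It read −2.19, −2.67 and −1.80 with IL1β and −0.58, 0.42 and 0.35 with both. All 6 arrays with TNFα lay above all 6 without it. The difference over all TNFα arrays was 2.40 ± 0.37 (5.27-fold), which missed the threshold (adjusted p = 0.0689), as did TNFα alone (2.52 ± 0.52, adjusted p = 0.227) and both cytokines (2.34 ± 0.52, adjusted p = 0.130). This signal cannot be assigned to CD74 or to RNF40.

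RNF40 is not a member and its promoter is not shown, so what follows does not assign the signal of the shared probe to CD74. The CD74 promoter is shown because that probe gave the second-largest TNFα difference among the member probes. The 200 bases before its RefSeq start (GRCh38.p14, chr5:150412911-150413110, minus strand) hold 1 NF-kB match, in capitals, at −20 to −11 relative to the start.
CD74: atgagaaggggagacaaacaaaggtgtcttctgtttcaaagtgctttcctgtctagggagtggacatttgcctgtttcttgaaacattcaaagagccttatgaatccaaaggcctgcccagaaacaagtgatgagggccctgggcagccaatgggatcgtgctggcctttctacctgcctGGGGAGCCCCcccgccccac

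The probe listed with HLA-DRB1, HLA-DRB3, HLA-DRB4 and HLA-DRB5 read −0.16, −0.02 and 0.47 with vehicle and 0.39, 0.64 and 0.77 with TNFα. It read 0.90, 0.51 and 0.60 with IL1β and 1.30, 0.83 and 0.88 with both. The arrays with both cytokines lay above the vehicle arrays, by 0.90 ± 0.23 (adjusted p = 0.167).

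**Figure D3:**
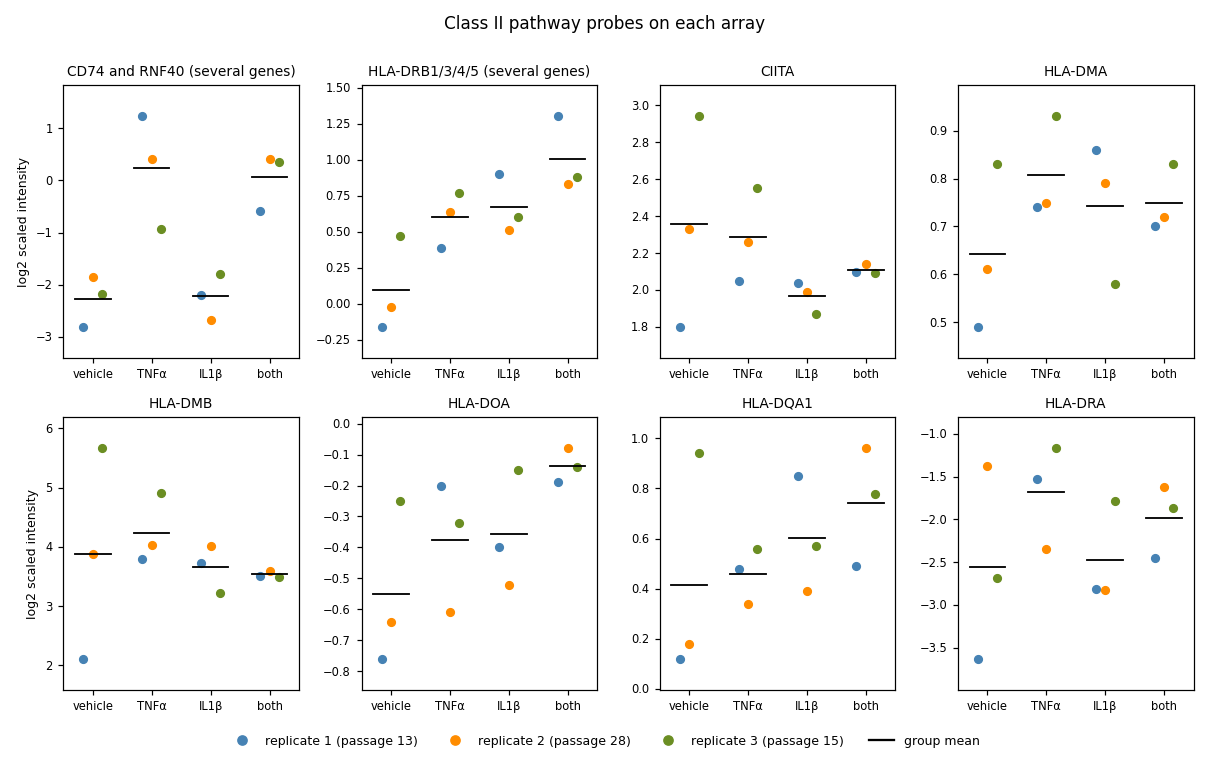
Log2 scaled intensity (vertical axis) of 2 probes listed with several genes and of 6 class II pathway genes on every array in the 4 groups (horizontal axis), with points coloured by passage and a line at each group mean. The CD74 and RNF40 probe lay higher on all arrays with TNFα, while CIITA, HLA-DMB and HLA-DRA overlapped between vehicle and TNFα.

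Across the 28 represented members the median change was 0.34 with TNFα (−0.02 over all genes), 0.11 with IL1β (−0.15) and 0.43 with both (−0.10). The changes were positive for 25, 20 and 24 of them. Groups did not overlap, with the treated arrays higher, for 6 members with TNFα (4.09% of all genes), 2 with IL1β (2.58%) and 11 with both (6.80%). At an unadjusted p under 0.05, 6 members were higher with TNFα (3.45% of genes), 2 with IL1β (2.18%) and 6 with both (4.61%). No member was called with IL1β (0.0110% of genes higher). These comparisons share the vehicle arrays. The 14 second probes had the sign of the representative probe for 8 with TNFα and for 10 with both cytokines.

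**Figure D4:**
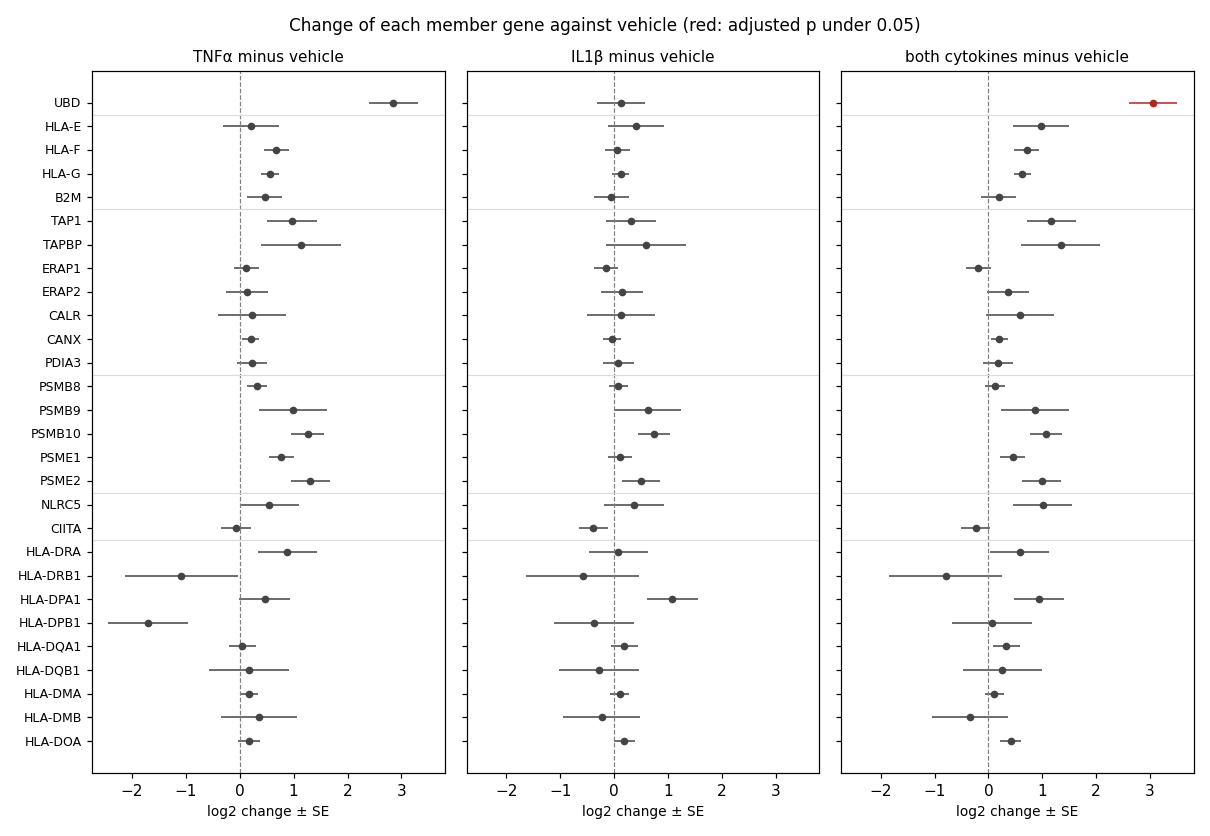
Log2 change from vehicle with its standard error (horizontal axis, the same scale in all panels) for the 28 represented members (vertical axis, ordered by role) with TNFα, IL1β and both cytokines. UBD with both cytokines, in red, is the value past the threshold, at 3.06, and HLA-DRB1 has the widest error, 1.05.

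Between both cytokines and TNFα alone the median member change was 0.05 (−0.07 over all genes). Between both cytokines and IL1β alone it was 0.29 (0.06). Between TNFα and IL1β it was 0.30 (0.13). No member was called in these 3 comparisons by limma, as 0% of genes were called higher. At an unadjusted p under 0.05, 1, 3 and 5 members were higher, against 1.80%, 2.20% and 3.35% of genes, and 0 were lower. No member was called for IL1β over all arrays (0.0221% of genes higher), with 1 higher at an unadjusted p under 0.05 (2.61%). For the interaction 0 members were called (0%) and 0 were higher at an unadjusted p under 0.05 (1.82%).

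The members varied between vehicle arrays more than between arrays with both cytokines. The median SD over the 28 members was 0.62 with vehicle, 0.42 with TNFα, 0.33 with IL1β and 0.10 with both, and over all genes it was 0.54, 0.30, 0.29 and 0.14. Vehicle replicate 3 read over 1 log2 unit below the mean of the other vehicle arrays for 7 members (HLA-E, TAP1, TAPBP, ERAP2, NLRC5, CALR and HLA-DPA1) and over 1 above it for 5 (B2M, PSMB9, HLA-DRB1, HLA-DQB1 and HLA-DMB). Without the 3 arrays that lay apart the median member change was 0.49 with TNFα, 0.17 with IL1β and 0.47 with both.

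**Figure D5:**
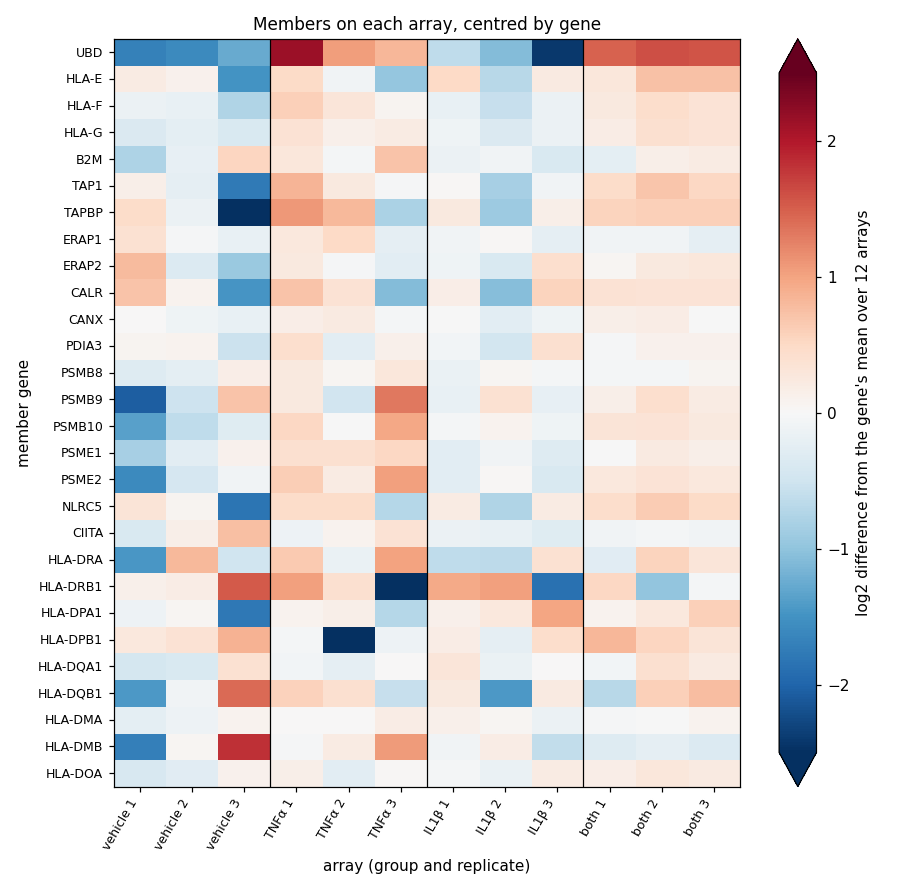
Log2 difference of each represented member (rows) from its own mean over the 12 arrays (columns, by group and replicate), red above and blue below the mean, with colours limited to ±2.5. Vehicle replicate 3 is low for TAPBP, TAP1 and NLRC5 and high for HLA-DMB, and the 3 arrays with both cytokines resemble each other, with a median SD of 0.10.

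Of the other genes of these pathways, CTSS passed the test. CTSS encodes cathepsin S, the protease that trims CD74 from class II molecules. Its log2 level was 1.60, 1.27 and 1.11 with vehicle and 5.13, 4.08 and 4.92 with TNFα. It was 3.72, 3.17 and 3.67 with IL1β and 4.49, 4.90 and 4.94 with both. All cytokine arrays lay above all vehicle arrays. CTSS rose by 3.38 ± 0.30 with TNFα (adjusted p = 0.00395) and by 3.45 ± 0.30 with both (adjusted p = 0.00282), and stood 2.19 ± 0.30 higher with IL1β (adjusted p = 0.139). The fits with a block or without single arrays were read for the members only, so the stability of the CTSS calls was not examined.

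CTSS was the 1 called of 25 measured class II pathway genes (of 28 listed) in both of those comparisons. Of all genes, 0.0773% were called in either direction with TNFα, 0.0110% with IL1β and 0.348% with both. Of 29 measured class I and proteasome genes (of 33 listed), 25 upstream regulators (of 28) and 9 ligands of natural killer and related receptors (of 12), 0 were called by limma in any comparison with vehicle. At an unadjusted p under 0.05, 2, 6 and 1 of them were higher with both cytokines, against 4.61% of all genes. Of the 25 class II pathway genes, CTSS included, 3 were higher with both and 5 with TNFα, against 4.61% and 3.45%. Among the regulators, IRF7, an interferon regulatory factor, differed by 1.76 ± 0.35 with both (adjusted p = 0.0926). The interferon receptor chain IFNAR2 differed by 1.15 ± 0.23 (adjusted p = 0.0962) and the NF-kB subunit NFKB1 by 1.59 ± 0.47 (adjusted p = 0.221). IRF1, a known activator of class I genes, differed by 0.63 ± 0.34 (adjusted p = 0.476). ULBP2, a ligand of the receptor NKG2D, differed by 0.67 ± 0.23 (adjusted p = 0.266). RAET1E, from the same list of ligands, differed the other way, by −0.35 ± 0.17 (adjusted p = 0.411).

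Markers of other cells were read beside the class II and CTSS values. Of 15 leukocyte and antigen-presenting cell markers, 13 were measured, and 8 (PTPRC, CD14, ITGAM, LYZ, CD3D, MS4A1, TYROBP and LAPTM5) lay below the array median on all 12 arrays, while 4 (CD68, ITGAX, CD3E and CD1C) lay above it on all 12. Their summed linear signal over the whole list ranged from 64.1 to 144 with vehicle, 48.7 to 101 with TNFα, 48.0 to 107 with IL1β and 90.5 to 101 with both. The dendritic cell marker CD1C alone made up 75.5% to 91.8% of it on each array. The part of these markers in the class II and CTSS values was not tested. The summed signal of 8 measured epithelial markers (of 9) ranged from 87.9 to 122 with vehicle, 60.3 to 108 with TNFα, 26.9 to 65.2 with IL1β and 39.7 to 41.5 with both, and its part in the results was not tested. KRT19 alone made up 51.8% to 81.5% of that sum. EPCAM, CLDN3 and CLDN4 lay below the array median on all 12 arrays, while 4 of the 8 lay above it on all 12. Of the 8 epithelial markers, 1 was called lower with both cytokines, against 0.0608% of all genes. At an unadjusted p under 0.05, 4 were lower with both and 5 with IL1β, against 8.07% and 5.96% of genes. The summed signal of the 6 endothelial markers ranged from 14.7 to 21.9 over all arrays, of which PECAM1 made up 47.9% to 79.0%.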

How the data were processed

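RNA of 12 cultures was measured on single-colour arrays. The deposited values were linear intensities. That the authors had scaled each intensity to its array was inferred, since every array's median lay near 1. The software used is not given in the sources used here. The code −9999 (0.716% of values) and values at or below 0 (1.10%) were set to missing before log2. A probe needed 2 or more values in each group, which 53671 of 54359 had. Group means over the 12 arrays were fitted in R 4.3.3 by limma 3.58.1 (lmFit and eBayes, two-sided, 8 residual degrees of freedom), with Benjamini-Hochberg adjustment over all of them and calls at an adjusted p under 0.05. The scripts were tested on simulated data, with changes set between both cytokines and vehicle. The fit recovered 12% of 2-fold, 50% of 4-fold, 74% of 8-fold and 92% of 16-fold changes. A difference of about 2-fold that did not pass is therefore not shown to be absent.

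The platform's gene table, which can be old, names 1 gene for 23472 probes, several for 905 and no gene for 29982, and symbols were updated by Entrez identifier for 23434. Every member with a single-gene probe is named, by the probe with the highest mean. Other probes are given where they bear on the result, some chosen after their values were seen. Of the other pathway lists up to 4 called genes, or the 2 with the lowest p, could be named, besides a few regulators always given, among them IRF1, RFX5, NFKB1 and RELA. Of these, RFX5 differed by 0.60 and RELA by 0.30 between both cytokines and vehicle, and neither passed. The members and lists were chosen with earlier results of these data known. Motifs were read from RefSeq promoters (GRCh38.p14) with Python 3.11.15 and pandas 2.3.3.

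The labels give replicates 1, 2 and 3 of each group the same passages, so the numbers pair the arrays by passage. After group means were removed, 18 same-number pairs had a mean correlation of 0.007 (−0.196 to 0.310) and 36 other pairs −0.003. That mean pools pairs of different sign. Same-number pairs of vehicle and TNFα gave 0.176, 0.028 and 0.310, and their other pairs −0.277 to 0.135. Same-number pairs of vehicle and IL1β gave 0.065, −0.107 and −0.196, and those of vehicle and both cytokines −0.030, 0.000 and −0.011. A mean near 0 therefore does not show that passage had no part. The protocols name no block, so passage as a block was an alternative, beside quantile normalization, an offset of 0.068, filters on dim or missing values, 1 probe per gene, another variance prior, array weights, fits restricted to the groups compared, and fits without single arrays or passages.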

Additional observations from a re-analysis of the deposited data

How the results depend on the processing

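The array number, 3 a group, and signals near background are among the limits: UBD and 6 class II chains were dim, and removing dim probes took UBD out, leaving 0 members called with both cytokines and 0 for TNFα over all arrays. For TNFα against vehicle 1 member, UBD, was called instead of 0 under quantile normalization, the offset, 1 probe per gene, the trend and robust prior and array weights. For both cytokines against vehicle 0 were called with the replicate block, without the 3 arrays that lay apart, and in every fit without 1 array or 1 passage (0 to 0). For TNFα over all arrays the block kept 1, the fits without 1 array or 1 passage gave 0 to 1, and 0 remained without the 3 arrays. Array weights called 5 members with both cytokines (UBD, HLA-G, HLA-F, PSME2 and PSMB10), 6 for TNFα over all arrays (these and PSME1) and 1 for both against IL1β. They down-weighted vehicle replicates 1 and 3 (0.22 and 0.12) and raised the probes called with both cytokines from 133 to 3863, so these calls rest on the weights. Under the block 13 probes in place of 25 were called for TNFα against vehicle, and 88 in place of 133 for both cytokines. The causes were not tested.

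Over its settings the UBD change was 2.36 to 3.26 with TNFα (adjusted p 0.0300 to 0.603, called in 5 of 18), 2.73 to 3.33 with both (0.00621 to 0.349, 7 of 18) and 2.56 to 3.36 over all TNFα arrays (0.00175 to 0.433, 18 of 23). Its small, uncalled estimates changed sign. IL1β against vehicle gave −0.31 under array weights and −0.32 to 0.78 without 1 array or passage (among them −0.24, −0.02 and −0.06). IL1β added to TNFα gave −0.11 under array weights, −0.03 without the 3 arrays and −0.04 to 0.66 without 1 array or passage (among them −0.03). IL1β over all arrays gave −0.21 under array weights and −0.01 to 0.43 without 1 array or passage. The interaction gave −0.22 under quantile normalization, −0.14 without the 3 arrays and −0.82 to 0.98 without 1 array or passage (among them −0.04, −0.06, −0.16 and −0.43). Of all 28 members, 14 changed sign under some alternative with TNFα, 21 with IL1β and 9 with both. The median member change stayed between 0.25 and 0.51, 0.03 and 0.32, and 0.27 and 0.62.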
